A study of Drosophila melanogaster with 2 samples.

Results

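The genes of 60 kb or more on chromosome arms 2L, 3L and 3R and on the X of Drosophila melanogaster were described by how much dBigH1 they carried in testis chromatin. A gene was taken when its listed span, introns included, was at least 60 kb, and 171 of the 15421 genes in the deposited table met this rule: 35 on 2L, 42 on 3L, 42 on 3R and 52 on X. Chromatin of whole testes of adult w1118 males, cleared by hand of accessory glands and pooled, was taken from a stock with a mutation of the eye colour gene white. It was immunoprecipitated with an antibody against dBigH1 and compared with input DNA of the same stock, stage and tissue, which had no antibody. There was 1 library of each, so no value has a replicate check, no p-value was computed, and each comparison describes these 2 libraries. Testes hold germline cells at every stage and somatic cells, and a value here is their average: more cells of a type and more dBigH1 per cell cannot be told apart.

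dBigH1 is a germline variant of the linker histone H1, the protein that binds DNA where it enters and leaves the nucleosome. Very long genes in the fly owe their length to large introns, and many of them encode proteins of the nervous system (adhesion molecules of growing axons, ion channels, neurotransmitter and peptide receptors) or regulators of development. Most are described from neurons, muscle or embryonic patterning, and a smaller number, such as AGO3, bru1 and heph, are known for work in the germline. Their length also gives them many reads, so the ratio of dBigH1 to input can be read gene by gene.

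The very long genes were well counted and stood above the typical gene. They had 2835 to 20386 input reads (median 6653) and 401 to 5782 dBigH1 reads (median 1227), against medians of 197 and 20 over all genes. The library totals behind these were 12747726 reads for input and 2864636 for dBigH1. For each gene the log2 ratio of dBigH1 to input reads, scaled by these totals, was set against the ratio of the median gene of the table, which was -1.0 on the log2 scale, and the value is called the read ratio below. The 95% exact Clopper-Pearson interval of a read ratio covers counting error only, since there was 1 library of each kind. It takes each read as a separate molecule, but reads were not marked as such, so the interval may be too narrow. Its median half-width was 0.09 over the very long genes.

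The median read ratio of the 171 genes was 0.61, or 1.52-fold, with quartiles of 0.46 and 0.84 and a range from -0.12 to 1.68. At least 1.5-fold above the median gene of the table were 93, or 54.4%, against 16.2% of all genes. None was 1.5-fold below that median gene, against 17.3% of all genes. At 2-fold or more were 24 of 171, where 7.69% of all genes were. The interval lay wholly above the median gene for 169 of them against 17.9% of all genes, and wholly below it for none against 9.41%, but with so many reads even a small difference gives such an interval. The SD of the read ratio over the 171 genes was 0.32, which is larger than the counting error of any one of them, whose half-widths ran from 0.04 to 0.15. The spread from highest to lowest was 3.47-fold.

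**Figure D1:**
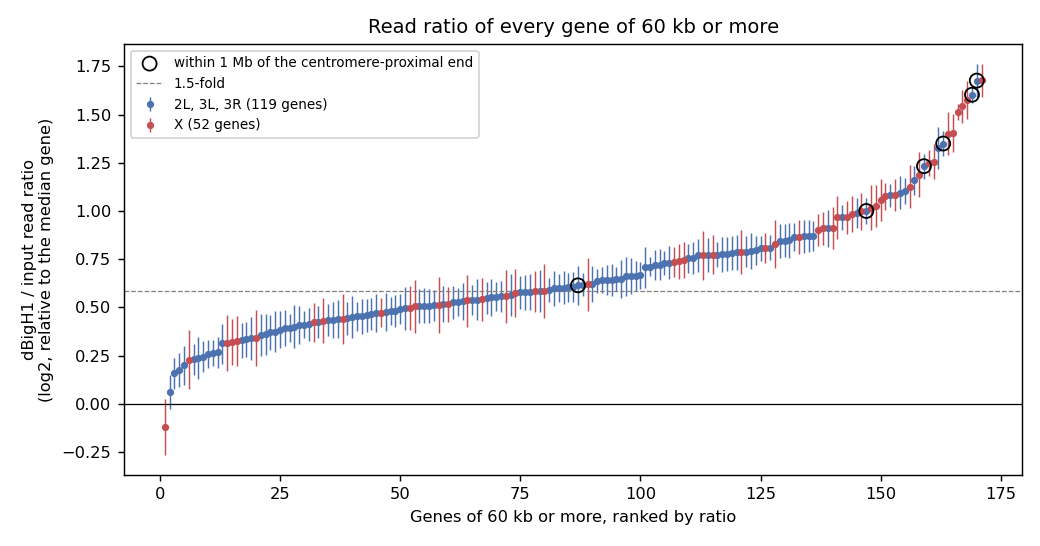
Read ratio of dBigH1 to input (log2, relative to the median gene) for each of the 171 genes of 60 kb or more, in order of their ratio. Points are single genes, bars are 95% exact intervals for counting error, red is X and blue the autosomal arms, circles mark genes within 1 Mb of the centromere-proximal end of the listed genes, and the dashed line is 1.5-fold. Most genes form a gradual slope from 0.06 to about 1, and a steeper upper end reaches 1.68.

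The level of the very long genes was the upper end of a gradient with length. On the same arms the median read ratio was -0.08 in 6122 genes under 2 kb and -0.09 in 4251 genes of 2 to 10 kb. It was 0.23 in 719 genes of 10 to 20 kb, 0.40 in 443 genes of 20 to 40 kb and 0.49 in 175 genes of 40 to 60 kb. Above the 60 kb limit it was 0.59 in 110 genes of 60 to 100 kb and 0.64 in 61 genes of 100 kb or more. The 618 genes of 20 to 60 kb, also well counted with a median of 391 dBigH1 reads, had 26.2% of their members 1.5-fold above the median gene. Within the very long genes the ratio hardly followed length: the Spearman correlation with length was 0.13 over 171 genes, which share both libraries. Just outside the 60 kb limit were Wdr62 at 0.21, CG34347 at 0.61 and fipi at 0.39, and just inside were app at 0.37, Eip74EF at 0.31 and CARPB at 1.40.

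**Figure D2:**
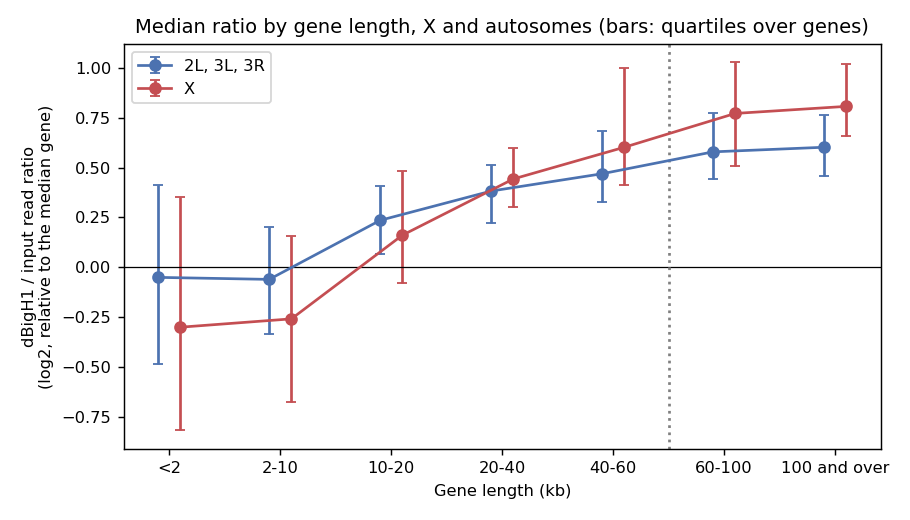
Median read ratio (log2, relative to the median gene) by gene length in kb, for the X (red) and for 2L, 3L and 3R together (blue). Bars are quartiles over genes, and genes to the right of the dotted line are those of 60 kb or more. Both lines rise with length from the class of 2 to 10 kb on, and the X goes from below the autosomes in the shortest genes (-0.30 against -0.05) to above them in the longest (0.81 against 0.60).

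The highest genes were of mixed function, and 6 of the highest 10 were on the X. AstA-R1 (listed as AlstR, FBgn0028961, chromosome X, 3468569 to 3560757, build dm3) encodes a receptor for the neuropeptide allatostatin A. It had 1563 dBigH1 reads against 4366 input reads, an RPKM (reads per kb of gene, scaled to the library total) of 5.92 against 3.72, and a read ratio of 1.68 (1.59 to 1.76). nvd (FBgn0259697, 3L, 24317967 to 24394755), which encodes a Rieske oxygenase for the first step from cholesterol to ecdysteroid hormones, had 1405 against 3926 reads and the same ratio of 1.68 (1.59 to 1.76). The synaptic SNARE gene Snap25 (FBgn0011288, 3L, 24067329 to 24292305) had 5519 against 16226 reads and the highest dBigH1 RPKM of the 171 genes, 8.56, at a ratio of 1.60 (1.56 to 1.65). The intervals of AstA-R1, nvd and Snap25 overlap, so their order is not resolved.

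Next came 5 genes of the X. RhoU (listed as CG34104), a small GTPase gene, was at 1.58 (1.48 to 1.67) with 1139 dBigH1 and 3408 input reads. Tlk, the Tousled-like kinase of chromatin assembly, was at 1.54 (1.46 to 1.63) with 1443 against 4423. The uncharacterised gene CG3777 was at 1.40 with 1106 against 3734. CARPB (listed as CG32698), a relative of carbonic anhydrases, was also at 1.40 (1.29 to 1.51). kirre (FBgn0028369, X, 2634417 to 3028565), which encodes an immunoglobulin-domain protein of myoblast fusion, is the longest of the 171 at 394 kb and stood at 1.51 (1.47 to 1.56) with 5782 against 18072 reads. Its span contains the gene w, however, which had 1408 dBigH1 reads against 248 input reads and a read ratio of 5.66. Without the reads of w, kirre had 4374 against 17824 reads and a ratio of 1.13 (1.08 to 1.18), which would be place 15 in place of 6.

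The remaining 2 of the highest 10 were autosomal. CG40470, in the proximal part of 3L, was at 1.35 (1.29 to 1.41) with 2525 against 8846 reads. stol (listed as CG4587, FBgn0028863, 2L, 15644195 to 15714237) encodes an alpha2-delta subunit of calcium channels and was at 1.33 (1.22 to 1.43) with 910 against 3237 reads. Its position rested on a low input: the input RPKM of 3.63 was the lowest of the 119 autosomal genes, whose median was 6.82, while its dBigH1 RPKM of 4.54 was below their median of 5.09. nvd, at an input RPKM of 4.01, and CG40470, at 4.74, were also low in input, but their dBigH1 RPKM of 6.39 and 6.01 was above the autosomal median.

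The lowest genes formed no tail like the upper one. prage (listed as CG42666, FBgn0261548, X, 1667752 to 1747700) was the single gene below the median gene, at -0.12, and its interval of -0.27 to 0.03 crossed it. It had 420 dBigH1 reads against 4069 input reads, and the lowest dBigH1 RPKM of the 171 genes, 1.83. dpy (listed as dp, FBgn0053196, 2L, 4477462 to 4595054), which encodes a giant extracellular matrix protein, was at 0.06 (-0.03 to 0.15) with 1156 against 9888 reads. These 2 were the genes whose interval did not lie wholly above the median gene.

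The other 8 of the lowest 10 lay between 0.16 and 0.26. The teneurin gene Ten-m, which encodes a synaptic adhesion protein, was at 0.16 (0.08 to 0.24), and cv-c, a GTPase-activating protein gene, at 0.17 (0.09 to 0.26). ush, a zinc-finger cofactor of GATA factors, was at 0.20 (0.10 to 0.30), and the uncharacterised X gene CG3655 at 0.23 (0.08 to 0.38). Msp300 and klar encode proteins that link the nucleus to the cytoskeleton and stood at 0.23 (0.15 to 0.31) and 0.24 (0.17 to 0.32). wb, a laminin chain gene, was at 0.24 (0.13 to 0.34), and Ptp61F, a tyrosine phosphatase gene, at 0.26 (0.18 to 0.33). Of the lowest 10, 8 were autosomal, and their input RPKM, from 6.60 for dpy to 8.60 for ush, was near or above the autosomal median.

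**Figure D3:**
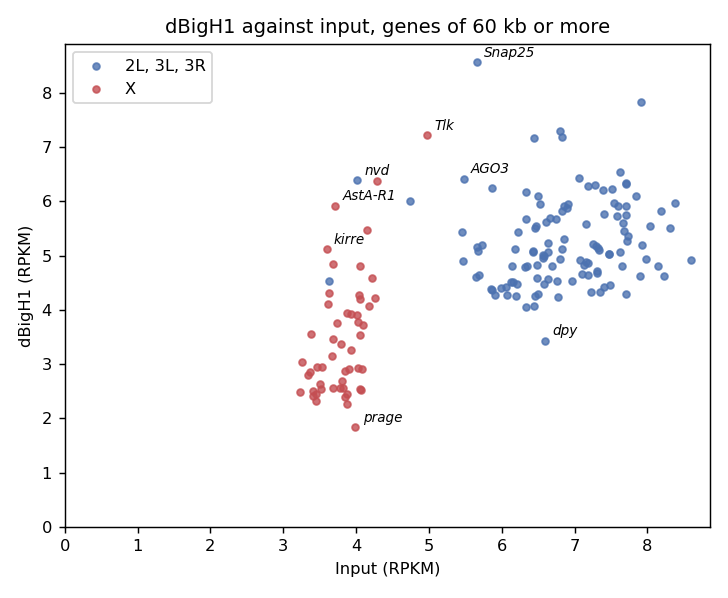
dBigH1 RPKM against input RPKM for the 171 genes of 60 kb or more, with the X in red and the autosomal arms in blue. Each point is a gene. The X genes lie between 3.24 and 4.97 in input, with dBigH1 values spread from 1.83 to 7.22. The autosomal genes lie between 3.63 and 8.60 in input.

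On the X the very long genes carried more dBigH1 per input read than on the autosomes. The median read ratio was 0.78 in 52 X genes (quartiles 0.52 and 1.04) and 0.59 in 119 autosomal genes (0.45 and 0.77), a difference of 0.19, and the ranges overlapped almost wholly. At least 1.5-fold above the median gene were 33 of the X genes (63.5%) and 60 of the autosomal genes (50.4%). At least 2-fold above it were 15 (28.8%) and 9 (7.56%). Among the arms 3R was the lowest, with a median of 0.54 against 0.62 on 2L and 0.66 on 3L. Males have a single X, and the median input RPKM of its very long genes was 3.83, or 0.56 of the autosomal 6.82. Their median dBigH1 RPKM was 3.09, or 0.61 of the autosomal 5.09.

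On the X the input level varied less than the dBigH1 level. Input ran from 3.24 to 4.97 RPKM and dBigH1 from 1.83 to 7.22 RPKM. The Spearman correlation of read ratio with input RPKM was 0.19 over the 52 X genes. Over the 119 autosomal genes, where input ran from 3.63 to 8.60 RPKM, it was -0.47, and a ratio shares its denominator with input. The low end of that autosomal range held stol at 3.63, nvd at 4.01 and CG40470 at 4.74, while CG40006 was at 5.46. With dBigH1 RPKM, which the ratio shares as its numerator, the correlation was 0.95 on the X and 0.71 on the autosomes. These correlations are partly set by the shared terms, so no conclusion is drawn from their sizes. The SD of the read ratio was 0.39 on the X and 0.28 on the autosomes.

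On the read ratio, the place of the X relative to the autosomes changed with gene length. The difference of the medians was -0.25 in genes under 2 kb, -0.20 at 2 to 10 kb and -0.07 at 10 to 20 kb. It was 0.06 at 20 to 40 kb, 0.13 at 40 to 60 kb, 0.19 at 60 to 100 kb and 0.21 at 100 kb or more. The input RPKM of the X relative to the autosomes moved little over these classes, between 0.54 and 0.57. The sign in short genes and the trend with length depended on the scale, and X genes under 2 kb had a median of only 6 dBigH1 reads. With a pseudocount of 1 RPKM the difference was -0.06 under 2 kb, -0.05 at 2 to 10 kb and 0.02 at 10 to 20 kb. On the authors' deposited MAnorm score it was above 0 in every class and did not rise with length. It was 0.49 under 2 kb, 0.22 at 20 to 40 kb, 0.31 at 60 to 100 kb and 0.18 at 100 kb or more. In the very long genes the X was higher on all these scales, by 0.18 with a pseudocount of 1 and by 0.28 on the score.

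Part of the upper end of the X lay in 1 stretch. Between kirre and Tlk, from 2634417 to 3683803, there were 5 very long genes, and all 5 passed the 1.5-fold line, from DIP-alpha (listed as CG32791) at 0.83 to AstA-R1 at 1.68. dnc, the cAMP phosphodiesterase gene known for its learning mutants, lies there too, at 1.25 (1.18 to 1.32) with 2308 against 8661 reads. This stretch was chosen after its values were seen. The 20 other listed genes of the stretch that overlap none of the 5 had a median of 0.39 and a summed read ratio of 0.89, against -0.16 and 0.30 for all 2265 X genes under 60 kb. Of the 2505 dBigH1 reads of these 20 genes, 960 lay in 1 gene, so the summed ratio leans on it. Their mean read ratio was 0.04, against -0.17 for the X genes under 60 kb. The 20 genes were not uniformly high, since 6 were 1.5-fold above and 6 were 1.5-fold below the median gene. The 47 very long X genes outside it had a median of 0.75, and the difference from the autosomes was then 0.16.

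Near the centromere the very long genes of 3L were high, and 2L had a single such gene there. Within 1 Mb of the centromere-proximal end of the listed genes there were 6: nvd, Snap25, CG40470 and AGO3 on 3L, CG40006 on 2L and CG34357 on 3R. Their median read ratio was 1.29, against 0.58 in the other 113 autosomal genes. Their median dBigH1 RPKM was 6.20 against 5.07, and their median input RPKM was 5.47 against 6.85. AGO3, which encodes an Argonaute protein of the piRNA pathway, was at 1.23 (1.17 to 1.30). CG40006 was at 1.0, below stol at 1.33 and Lar at 1.08, which lie farther out on 2L. CG34357 on 3R was at 0.61 (0.51 to 0.72), close to the median of all 171. The next gene outward on 3L, nAChRalpha4 (listed as nAcRalpha-80B), was at 0.85 at 1263 kb from the end, and Ten-m and olf413, at 2143 and 2303 kb, were among the lowest of the arm at 0.16 and 0.27. No very long gene of the X lay within this distance.

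**Figure D4:**
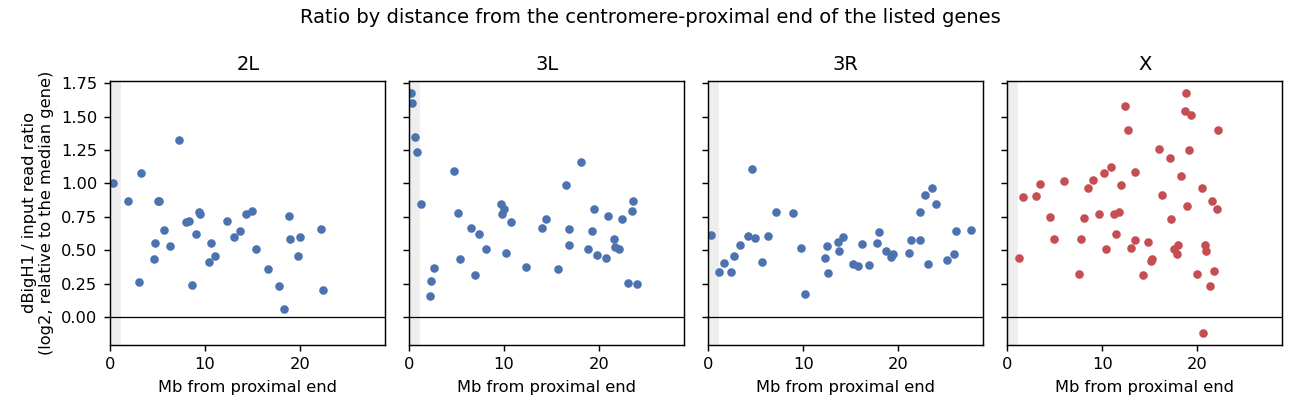
Read ratio (log2, relative to the median gene) against distance in Mb from the centromere-proximal end of the listed genes, by chromosome arm. Points are genes of 60 kb or more and the grey band marks the first 1 Mb. On 3L the 4 genes in the band lie between 1.23 and 1.68 and the values drop within about 2 Mb, while the X has high genes far from that end.

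By function, the 171 genes were read through 8 lists of genes written from textbook roles, which together held 94 of them. Counts past the 1.5-fold line in a list are to be set beside 54.4% of all 171 genes and 16.2% of all genes. The ion channel list had the highest median, 0.87, and all 8 genes in it passed the 1.5-fold line. It was not complete, since stol, the calcium channel subunit gene, was not in it. The count therefore holds for the list and not for every channel gene among the 171. They were SK, a calcium-activated potassium channel gene, at 1.19 (1.07 to 1.30), para, the voltage-gated sodium channel gene, at 1.02 (0.90 to 1.13), the T-type calcium channel gene Ca-alpha1T at 0.91, the gap junction gene shakB at 0.90, the acetylcholine receptor subunit genes nAChRalpha4 at 0.85 and nAChRalpha6 at 0.60, and the voltage-gated potassium channel genes Sh at 0.75 and Shab at 0.59. The X held 5 of the 8, and these had a median of 0.91 against 0.60 for the 3 on autosomes. The intervals of nAChRalpha6 and Shab reach below the 1.5-fold line.

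The 31 cell adhesion and axon guidance genes, the largest list, spanned nearly the whole range. Their median was 0.66, and 18 (58.1%) passed the 1.5-fold line, close to the 54.4% of all 171 genes. Below kirre came Lar, a receptor tyrosine phosphatase gene of axon guidance, at 1.08 (1.02 to 1.14), Ten-a at 1.08 (1.01 to 1.14) and Fas2 at 1.06 (0.95 to 1.17). Lar stood out on 2L through its dBigH1 level, 7.19 RPKM, since its input of 6.82 was at the autosomal median. Relatives of the same family differed: the teneurin genes Ten-a and Ten-m stood at 1.08 and 0.16, with intervals far apart, but on X and on 3L. dpr8 and dpr6, which encode immunoglobulin-domain proteins that help to match synaptic partners, were at 0.74 and 0.73, and dpr11 was at 0.34. The neighbouring cadherin genes CadN and CadN2 had equal values of 0.87. The proteoglycan and laminin genes trol, dally and wb were at 0.33, 0.36 and 0.24.

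The 19 listed transcription factor genes had a median of 0.55, with quartiles of 0.47 and 0.62. This median was the lowest of the lists on this scale, though not with a pseudocount of 5 RPKM or on the deposited score. Past the 1.5-fold line were 8 of the 19 (42.1%), against 54.4% of all 171 genes. The list was not complete, since Hr4, a nuclear receptor gene of the X at 0.97 (0.85 to 1.08), was not in it. The median and counts therefore hold for the list and not for every transcription factor gene among the 171. mamo, a zinc-finger gene needed for meiosis in the female germline, was the highest in the list at 0.97 (0.88 to 1.05). It was followed by bab1, a regulator of leg and ovary development, at 0.79 and the neural fate gene pros at 0.78. The Hox genes Ubx and Antp were at 0.53 and 0.46. Genes of the ecdysone response in the list were at 0.67 (Eip75B), 0.55 (Eip93F), 0.54 (br) and 0.31 (Eip74EF). Its 5 X genes had a median of 0.54 against 0.58 for 14 on autosomes, but the direction depended on the measure, since the means were 0.61 and 0.54 and the medians of the authors' deposited score, relative to the median gene, 1.18 and 0.96.

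The 10 listed RNA-binding protein genes, all autosomal, lay closest together of the lists, from mub at 0.37 to bru3 at 0.71, with a median of 0.60. This list was not complete either, since the Argonaute gene AGO3, at 1.23, was not in it. The narrow span therefore holds for the list and not for every RNA-binding protein gene among the 171. bru3 is the second longest of the 171 genes, at 281 kb, and had 3740 against 20386 reads (interval 0.66 to 0.76). pum, a translational repressor gene of the germline, was at 0.59, and heph, needed for sperm individualisation, at 0.65. The germline and testis list shares all its genes but AGO3 with other lists. Its 10 genes had a median of 0.59, from klar at 0.24 to kirre at 1.51, with AGO3 at 1.23, CadN at 0.87, fru at 0.60, scrib at 0.58, bru1 (listed as aret) at 0.56 and Fas3, a marker of the testis hub, at 0.43. Of the 10, 6 (60%) passed the 1.5-fold line, kirre with or without w among them, near the 54.4% of all 171 genes.

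The list of kinases, phosphodiesterases and small G protein regulators held 11 genes with a median of 0.61. Of these, 6 (54.5%) passed the 1.5-fold line, the share of all 171 genes being 54.4%. The list was not complete, since Tlk and other kinase genes among the 171 were not in it. The highest in the list were dnc at 1.25 and rdgA, a diacylglycerol kinase gene of photoreceptors, at 1.08, both on X, and the lowest was cv-c. Fur1, at 0.48, was placed in this list but encodes a protease. The 10 cytoskeleton, muscle and synaptic vesicle genes had a median of 0.62, with Snap25 and the junction protein gene pyd at 1.60 and 1.11 at one end and Msp300 and klar at the other. The 4 G protein-coupled receptor genes were AstA-R1 at 1.68, RYa-R (listed as NepYr) at 0.91, and the Wnt receptor genes fz at 0.48 and fz2 at 0.43. The 77 genes in no list had a median of 0.61, equal to that of all 171, and apart from the ion channels no list median differed from it by more than 0.1. The lists differ in their share of X genes, so function and chromosome were not separated here.

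**Figure D5:**
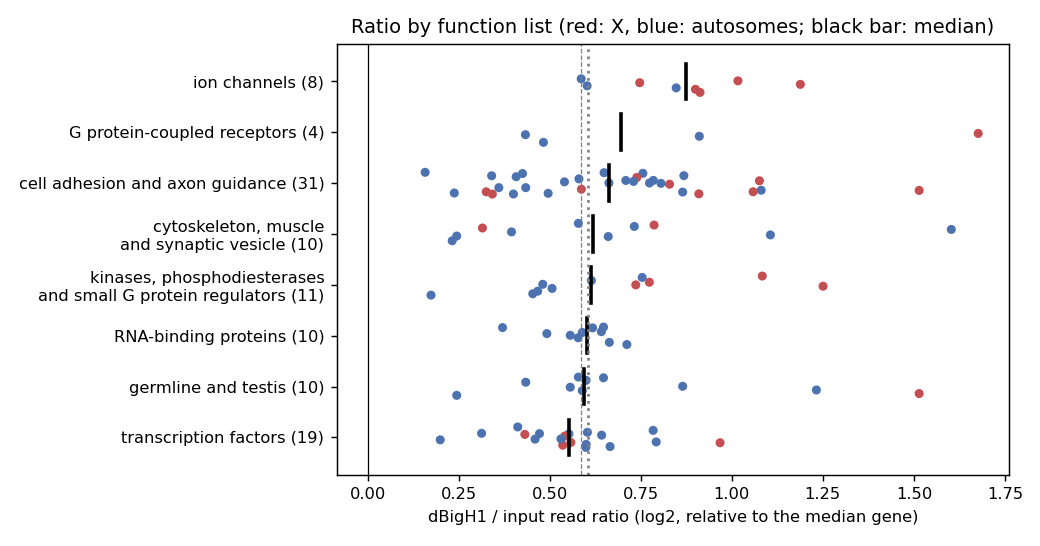
Read ratio (log2, relative to the median gene) of the genes of 60 kb or more in each of 8 function lists, with the number of genes in brackets. Points are genes (red X, blue autosomes), black bars are list medians, the dotted line is the median of all 171 genes and the dashed line 1.5-fold. The 8 listed ion channel genes all lie at or right of the dashed line, and the listed RNA-binding protein genes lie within 0.37 to 0.71.

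The very long genes also stood above the genes around them. For each, the reads of all shorter listed genes within 100 kb on either side that did not overlap it were summed, which gave a median of 1397 dBigH1 reads for the 170 genes with at least 50. The median read ratio of these surroundings was 0.23, and the long gene was higher in 148 of 170 cases. Only genes under 60 kb entered the surroundings, so this comparison was not separated from the gradient with length. The 9 of the highest 10 genes with such surroundings had a median of 1.51, against 0.27 for their neighbours. The lowest 10 had 0.21 against 0.13, with 6 of the 10 above their neighbours. Both groups were picked by their own ratio, which by itself widens the gap for the highest and narrows it for the lowest. Across the 170 genes the Spearman correlation between a gene and its surroundings was 0.14, and the points share both libraries. High surroundings were found beside high genes, as Snap25 at 1.24, and beside lower ones, as Flo2 at 1.13, where the gene itself stood at 0.32. Surroundings were low beside Lar and pyd, both at -0.02, while these genes stood at 1.08 and 1.11.

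Reads in overlapping genes were taken to be counted for each of them, since hosts of large genes had the input level of other genes. The input RPKM of timeout, for example, was 6.66, near the autosomal median, although genes inside it had reads equal to 47.5% of its own. Of the 171 genes 129 overlapped another listed gene, 123 held at least 1 gene wholly inside them (406 such genes in all), and 5 pairs of very long genes overlapped each other: CG32373 with Ank2, CG3777 with CG32816, Mur2B with br, CG32773 with bi, and rdgA with an unnamed gene. Genes inside held a median of 2.63% of the dBigH1 reads of these 123 hosts. Taking their reads away moved 10 of the 171 ratios by more than 0.1. The largest fall was that of timeout, from 0.78 to 0.40, since the gene 2mit inside it was at 1.13. The largest rise was that of a 3L gene listed under both CG42637 and Gyc76C, from 1.10 to 1.44. The 42 genes that overlapped no other had a median of 0.61, as did all 171.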

How the data were processed

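Per the labels' protocols, fixed testes were pooled and sonicated, and PCR-amplified Illumina libraries were sequenced as single reads. The submitters' processing notes list CASAVA 1.9, Bowtie2, FastQC 0.10, R 2.15 and build dm3. For overlapping genes and repeats, the assignment of reads is not stated in these sources. Per the file headers, the authors deposited log2 RPKM values. Subtracting 1 after exponentiation gave whole reads for 100% of values (tolerance 0.01 read), against 2.03% (input) and 2.17% (dBigH1) without, so the values were taken as log2(RPKM + 1) and reads and totals recovered. The authors' deposited MAnorm column behaves as a standardized score (SD 0.999) and was used as an alternative only.

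Read ratios were computed without a pseudocount or filter (Python 3.11.15, numpy 2.4.6, scipy 1.17.1), and functions were tested on simulated reads. Names came from the table (a row listed under 2 symbols, CG42637 and Gyc76C, entered no list) and, for 147 genes, a RefSeq table of Release 6. Of the 171 genes, 9 have no name there. The members and lists were chosen with earlier results of these data known. Named genes were the 10 highest and lowest, list and X extremes, the longest, those at the length limit or near centromeres, and overlapping pairs. Others were named after their values were seen. Promoter motifs had been planned; promoter sequences were not used here.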

Additional observations from a re-analysis of the deposited data

How the results depend on the processing

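The median read ratio of 0.61 was -0.40 without centring on the median gene, so every statement of height is relative to the median gene. Without centring 3 genes were 1.5-fold higher and 31 lower. Centred on genes of 20 to 60 kb, the median was 0.18 and 24 genes were 1.5-fold higher. With pseudocounts of 1 and 5 RPKM the median was 0.52 and 0.33, and 15 genes passed with 5. On the MAnorm score, in its own units, the median was 1.24. At 2-fold 24 genes passed. Smaller or larger sets changed the count by construction: 23 of 42 genes overlapping no other, 37 of 61 genes of 100 kb or more, and 163 of 346 genes of 40 kb or more. The X minus autosome difference of 0.19 was above 0 in all 12 alternatives, from 0.12 with a limit of 40 kb to 0.32 in genes overlapping no other. The distance between the highest and lowest list medians, 0.32, was 0.16 with a pseudocount of 5 and 0.61 on the score. Ion channels had the highest list median with pseudocounts of 1 and 5 and on the score. A median counted as moved beyond 0.09, the median half-width of a gene's interval. Taking away inside genes, and leaving out the stretch from kirre to Tlk, were chosen after seeing the data. No paired analysis was possible because each group had 1 library. Depth limits single genes to differences of about 0.1 and the lack of a second dBigH1 library limits all of them.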
